A study of Mus musculus with 28 samples.

Results

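The fatty acid binding protein family was followed through 28 bulk RNA sequencing libraries of medullary thymic epithelial cells (mTECs), a stromal cell type that transcribes genes of many peripheral tissues inside the thymus. Its 7 members, Fabp1 to Fabp7, were taken by symbol from a table of 55011 gene symbols, and each of the 7 had enough reads to be tested in each of 10 comparisons. In wild-type C57BL/6 thymus an entero-hepato gate (3 libraries) was sorted beside a gate outside it (3 libraries). The other libraries came from C57BL/6 mice with the Foxn1cre(+/-) allele, a Cre driver of thymic epithelium. The subset labelled post-Aire mTEClo was sorted from 4 genotypes: 4 control libraries (Hnf4a fl/+, Hnf4g +/-), 3 Hnf4a-removed ones (Hnf4a fl/fl, Hnf4g +/-), 3 Hnf4g-removed ones (Hnf4a fl/+, Hnf4g -/-) and 4 of the double mutant (Hnf4a fl/fl, Hnf4g -/-). The subset mTEChi came from control and double-mutant thymus of the same genotypes (4 libraries each). Every Foxn1-Cre group, controls included, thus carried Cre, at least 1 floxed Hnf4a allele and at least 1 mutant Hnf4g allele. The labels used here give no ages.

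Fatty acid binding proteins are small cytosolic carriers that hold a fatty acid or a related lipid inside a barrel of beta strands and move it between membranes, enzymes and nuclear receptors. FABP1 is the liver type and is also abundant in enterocytes, FABP2 is the intestinal type, and FABP6 carries bile acids in the ileum. FABP4 is the carrier of adipocytes and macrophages, FABP5 that of the epidermis, FABP3 that of heart and skeletal muscle, and FABP7 that of the developing brain and glia. HNF4A and HNF4G are related nuclear receptors of gut and liver that bind direct repeats of AGGTCA-like half-sites, and mTECs that take on an enterocyte-like or hepatocyte-like program are known as entero-hepato mTECs.

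The genes lie apart on the mouse genome, except for a pair. By GENCODE M21 on GRCm38, Fabp1 spans 71199827 to 71205023 of chromosome 6, Fabp2 122895072 to 122899506 of chromosome 3, Fabp3 130308595 to 130315463 of chromosome 4, Fabp6 43596049 to 43601540 of chromosome 11 and Fabp7 57784881 to 57788450 of chromosome 10. Fabp5 (10012548 to 10016607) and Fabp4 (10204088 to 10208576) lie near each other on chromosome 3, on opposite strands. Exons of Fabp3 overlap exons of Zcchc17 and Gm10570 on the other strand, and since the library kit does not mark strand, reads of Fabp3 cannot be told from theirs. The processed pseudogene Fabp3-ps1 had 1 to 22 reads per library.

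The stretches before the starts of the 3 gut carriers are shown because the main difference between genotypes lay in Fabp1, one of the 3. RefSeq (GRCm38.p6) gave an upstream window of 250 bases for 5 of the 7 members. Capitals mark the matches to AGGNCA and AGGTCA set 1 base apart, a direct repeat, to CAAAGNNCA, a shorter form bound by HNF4, and to TATAAA, each searched on both strands. The windows run 5′ to 3′ along each gene's own strand: chr6:71199629-71199826 on the plus strand for Fabp1, which ends before the gene start of GENCODE, chr3:122894822-122895071 on the plus strand for Fabp2 and chr11:43601563-43601812 on the minus strand for Fabp6.
Fabp1: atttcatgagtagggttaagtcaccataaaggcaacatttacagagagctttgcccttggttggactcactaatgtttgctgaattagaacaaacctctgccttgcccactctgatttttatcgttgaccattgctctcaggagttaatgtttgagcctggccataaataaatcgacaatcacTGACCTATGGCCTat
Fabp2: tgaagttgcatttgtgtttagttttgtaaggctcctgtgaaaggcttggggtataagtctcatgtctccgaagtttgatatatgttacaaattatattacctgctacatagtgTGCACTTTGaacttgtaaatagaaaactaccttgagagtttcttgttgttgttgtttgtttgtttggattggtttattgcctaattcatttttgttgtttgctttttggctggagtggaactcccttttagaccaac
Fabp6: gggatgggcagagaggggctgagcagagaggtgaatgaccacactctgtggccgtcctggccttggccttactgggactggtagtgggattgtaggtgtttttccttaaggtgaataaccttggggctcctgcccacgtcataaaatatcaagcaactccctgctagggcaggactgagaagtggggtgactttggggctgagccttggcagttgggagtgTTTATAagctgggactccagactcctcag
The Fabp1 window held the direct repeat on the reverse strand, from 67 to 55 bases before the RefSeq start, and a TATAAA (30 to 25 bases before it) in the 52 bases that are not printed. The Fabp2 window held the short form, also on the reverse strand, from 137 to 129 bases before the start. The Fabp6 window held TATAAA on the reverse strand. No match to these letters was found in the windows of Fabp3 and Fabp7. Of 27025 upstream windows of this length, 0.0851% held the direct repeat, 5.47% held CAAAGNNCA and 13.0% held TATAAA. The stricter forms, AGGTCA and AGGTCA set 1 base apart and CAAAGTCCA, were in none of the 5 member windows and in 0.037% and 0.381% of all windows. The letters searched were chosen with these sequences in view, and the direct repeat and the short form can overlap each other. A match describes the letters and no binding, by HNF4 or by any other protein.

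Total counts were 4330120 to 8342583 per library. The mTEC identity list, 17 genes such as Epcam and Aire, had reads for at least 16 genes in each group, with Ccl21a, a marker of immature mTECs, at 0 in all but the wild-type gate outside the entero-hepato gate. Replicate 1 of control, of Hnf4a-removed and of Hnf4g-removed mTEClo stood apart, being lowest of their groups in that list (12210, 11340 and 9272 CPM, reads scaled to library size). Where the number of members called between genotypes changes without these 3 libraries, both numbers are given, and values without them are given for some members. The 4 double-mutant mTEClo libraries were as low in it (10770 to 12130 CPM), so leaving out these 3 takes away the compared libraries most like the double mutant. Reads of the targeted genes remained in the mutants. In mTEClo, Hnf4g had a mean of 12.6 ± 2.73 CPM (SD, n = 4) in controls, 8.06 ± 0.651 (n = 3) where Hnf4g was removed and 5.18 ± 2.20 (n = 4) where both were, without overlap of the controls with either mutant. The Hnf4a-removed libraries, which are Hnf4g +/- as the controls are, had 7.76 ± 1.49 CPM (n = 3) and overlapped the Hnf4g-removed ones. Hnf4a was at 4.60 ± 2.06 CPM in control, 3.404 ± 1.16 in Hnf4a-removed and 3.12 ± 0.823 in double-mutant mTEClo, with overlapping libraries, so the counts check neither the Hnf4a label nor, between the single mutants, the Hnf4g label. Whether each library had its own mouse is not stated, and the p-values rest on the spread among libraries, whether biological or technical. In sorted bulk samples, fewer cells of a type and less RNA per cell cannot be told apart.

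The members differed in where they were highest. The group mean of Fabp1 was 102 times higher in its highest group, the entero-hepato gate (301 CPM), than in its lowest, Hnf4g-removed mTEClo (2.96 CPM). The same ratio was 40.8 for Fabp2 (49.6 CPM in the gate, 1.22 in double-mutant mTEClo), 10.7 for Fabp5 and 7.80 for Fabp4, both also highest in the gate and lowest in double-mutant mTEClo. Fabp6 was highest in control mTEChi (65.9 CPM), and Fabp3 and Fabp7 were highest in double-mutant mTEChi (19.1 and 16.2 CPM). These are descriptions of group means, and neighbouring groups in the order of a member often overlapped: for Fabp3, Fabp6 and Fabp7 each neighbouring pair did.

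**Figure D1:**
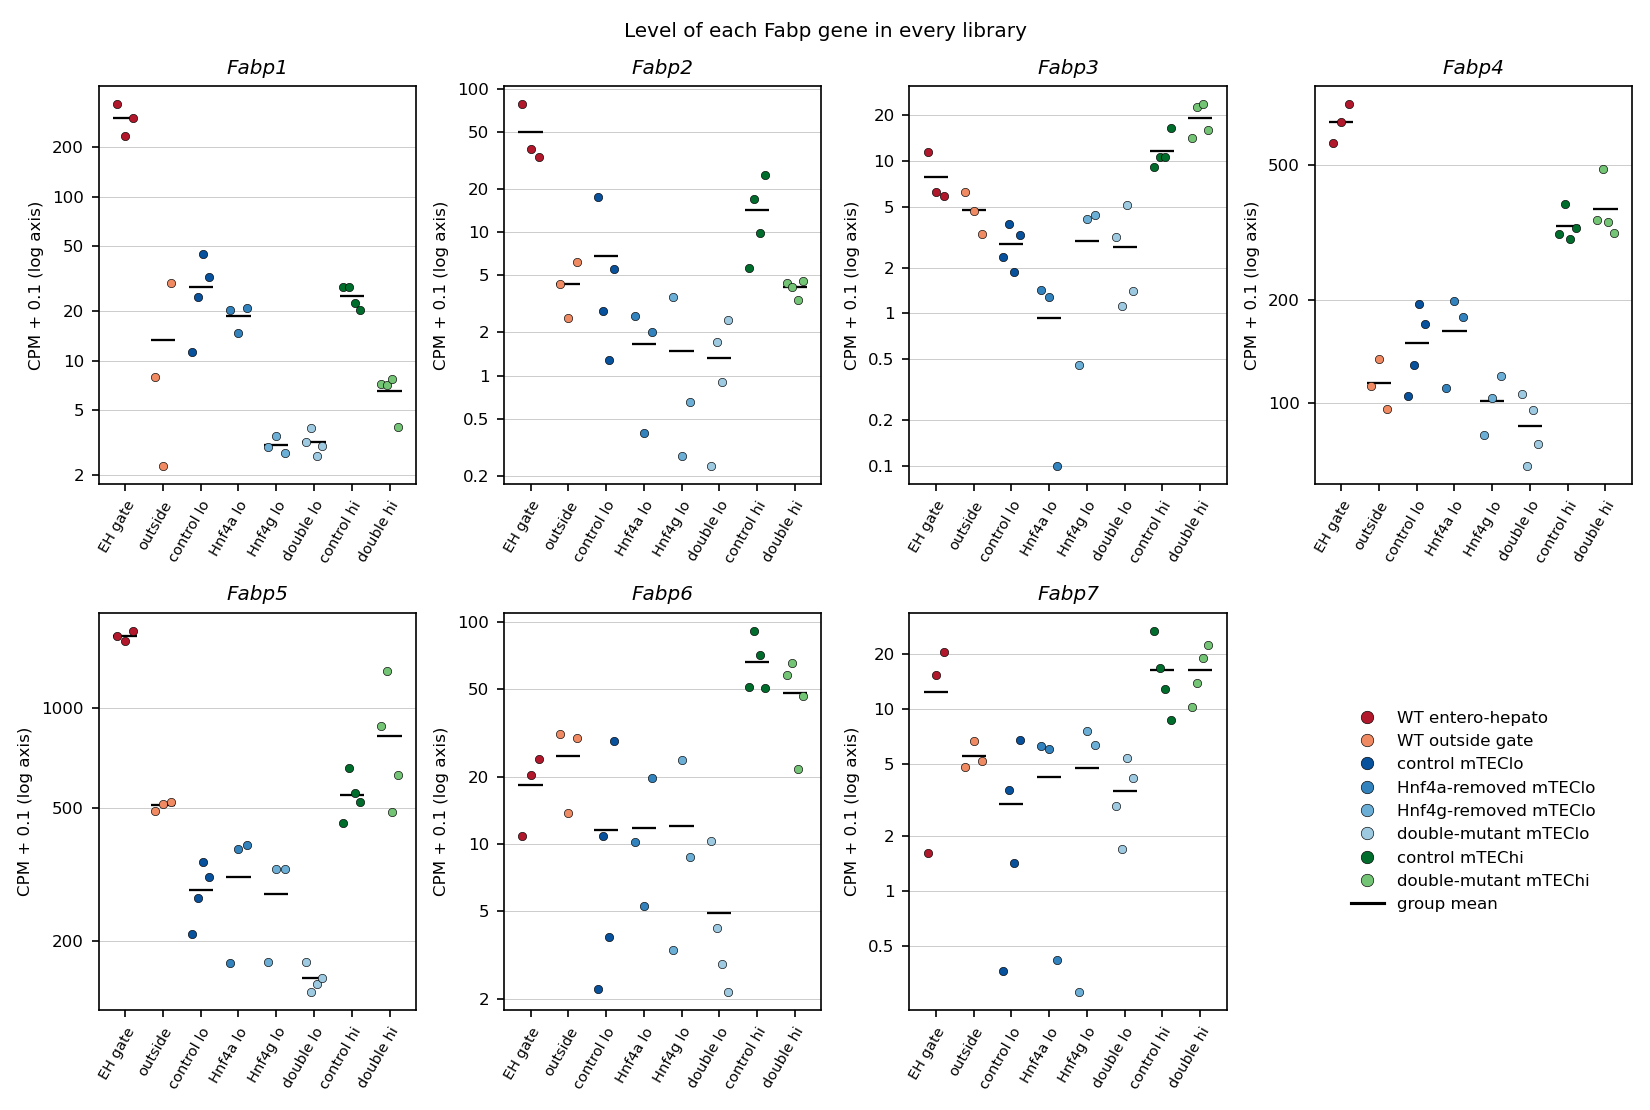
Level of each of the 7 genes in every library, as CPM + 0.1 on a log axis, by group (x axis: EH is the entero-hepato gate, outside is the wild-type gate outside it, and lo and hi are mTEClo and mTEChi). Points are libraries and lines are group means. Fabp1 lies at 2.52 to 3.78 CPM in the 7 libraries of Hnf4g-removed and double-mutant mTEClo, below the 11.2 to 44.4 CPM of the control mTEClo libraries.

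Compared per kilobase of the principal transcript, Fabp5 made up the largest part of the family in every group, with a mean of 47.9% of the summed level in control mTEChi to 70.2% outside the entero-hepato gate. Fabp4 followed with 17.3% to 34.3%. The share of Fabp1 was 17.7% ± 3.49 (SD, n = 3) in the gate, 3.18% ± 3.39 outside it and 8.89% ± 2.78 (n = 4) in control mTEClo. Without Hnf4g it was 1.32% ± 0.471 (n = 3) in the single and 2.07% ± 0.593 (n = 4) in the double mutant of mTEClo, and 0.881% ± 0.371 (n = 4) in double-mutant mTEChi. Fabp6 took 11.8% ± 1.98 (n = 4) in control mTEChi and 1.26% ± 0.457 (n = 3) in the gate. The order depends on the length used: over the union of exons, where retained-intron models lengthen Fabp4 and Fabp5, Fabp1 took 42.8% in the gate and Fabp5 36.7%.

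**Figure D2:**
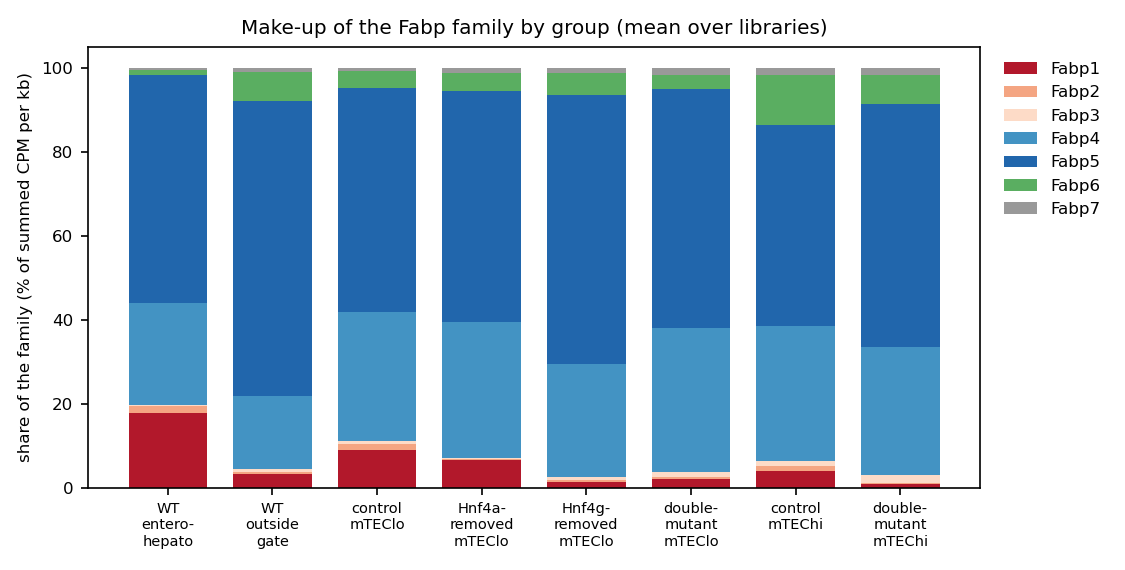
Make-up of the family in each group: mean share (%) of each gene in the summed CPM per kilobase of principal transcript over the group's libraries. Fabp5 is the largest block in each bar, and the Fabp1 block shrinks from 8.89% in control to 1.32% in Hnf4g-removed mTEClo.

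In the wild-type thymus, the entero-hepato gate held more RNA of Fabp1, Fabp2, Fabp4 and Fabp5 than the cells outside it. The enterocyte carriers Fabp1 and Fabp2 differed most, by about 22.1-fold and 11.4-fold, against 5.81-fold and 3.19-fold for the adipocyte and epidermal types. Fabp6, the ileal bile acid carrier, did not pass the test. By edgeR's quasi-likelihood test with Benjamini-Hochberg adjustment, 4 of 7 members were higher and 0 lower at adjusted p under 0.05, beside 22.7% of all 16811 genes tested higher and 44.5% called in either direction.

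Fabp1 had 368, 234 and 302 CPM in the 3 libraries of the gate and 7.85, 2.18 and 29.8 outside it. The lowest library of the gate stood well above the highest outside it, and the libraries outside it spread the most, with a coefficient of variation of 110%. The log2 fold change was 4.47 (SE 0.60, 95% interval 3.10 to 5.83, adjusted p = 0.000411). Fabp2 had 77.9, 37.6 and 33.3 CPM in the gate and 4.24, 2.40 and 6.08 outside it, again without overlap (log2 fold change 3.51, SE 0.42, adjusted p = 0.000223). Fabp4 had 579, 666 and 753 CPM in the gate and 112, 134 and 95.7 outside it. Fabp5 had 1638, 1586 and 1706 CPM against 491, 516 and 523, the tightest pair of groups of the family. Their log2 fold changes were 2.54 (SE 0.15, adjusted p = 5.16e-06) and 1.67 (SE 0.08, adjusted p = 1.8e-06), and these 4 calls held in each of 6 fits with a library left out.

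Fabp6 had 10.8, 20.4 and 24.1 CPM in the gate and 31.2, 13.8 and 29.8 outside it, so the groups overlapped (log2 fold change -0.44, SE 0.37, 95% interval -1.29 to 0.41, adjusted p = 0.373). Fabp3 had 11.4, 6.17 and 5.81 CPM in the gate and 6.15, 4.59 and 3.24 outside it (log2 fold change 0.72, SE 0.43, adjusted p = 0.209). Both genes thus showed no difference beyond the spread of the libraries. Fabp7 had 1.51, 15.1 and 20.3 CPM in the gate and 4.67, 6.55 and 5.07 outside it, and a single library of the gate lay below the others. Its log2 fold change was 1.18 (SE 0.72, adjusted p = 0.215) and 1.72 without that library, entero-hepato replicate 1 (adjusted p = 0.00491).

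**Figure D3:**
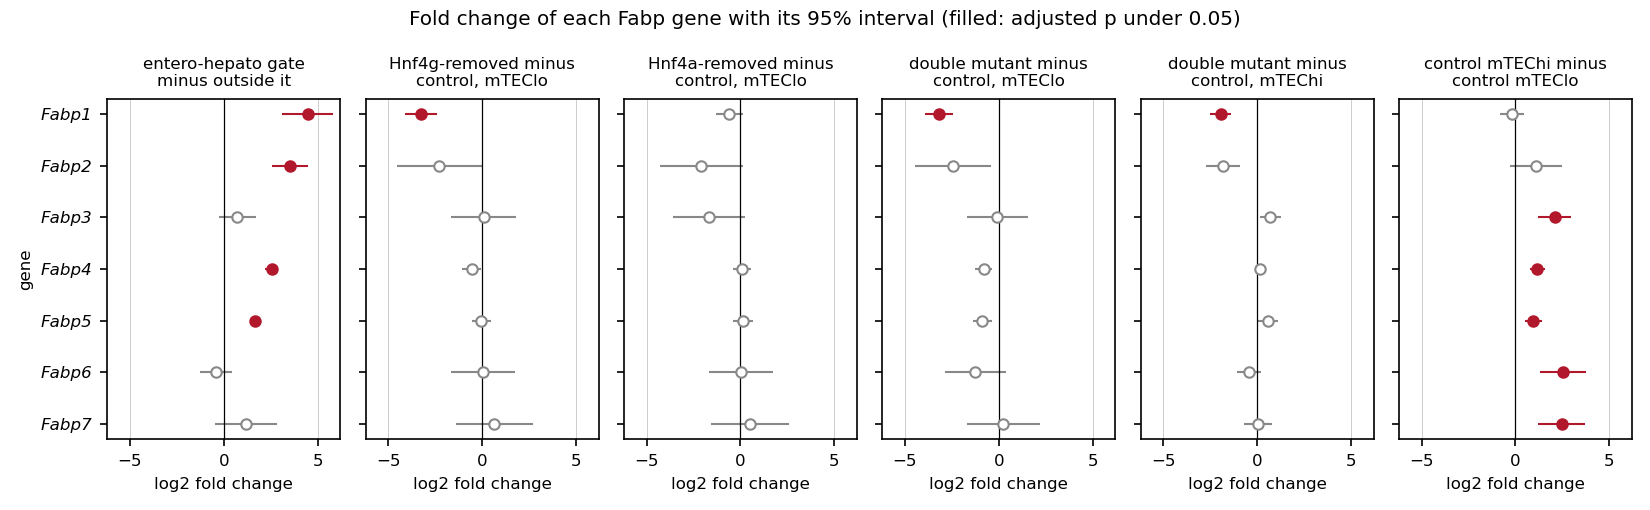
Log2 fold change of each gene (points) with its 95% interval (lines) in 6 comparisons, from edgeR; filled red points have adjusted p under 0.05. In the 3 Hnf4g-lacking comparisons (Hnf4g-removed mTEClo, double-mutant mTEClo, double-mutant mTEChi) the filled point is Fabp1, at -3.24, -3.18 and -1.94.

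Other genes of intestinal lipid handling were higher in the gate as well. Of 20 tested genes of triglyceride resynthesis and chylomicron assembly, 17 rose and 1 fell, with a median log2 fold change of 2.19 against -0.05 over all genes tested. Among them were Apoc3 (5.91, adjusted p = 8.21e-07) and Apoa4 (5.06, adjusted p = 1.99e-06), apolipoproteins of chylomicrons, and Dgat2 (2.73, adjusted p = 1.73e-06), which makes triglyceride. Of 16 tested PPAR target genes, the genes switched on by fatty acid receptors, 12 rose and 0 fell, among them Plin2 (2.74, adjusted p = 6.1e-05), a lipid droplet coat protein. Of 13 genes of fatty acid uptake and activation, 5 rose and 4 fell. Dbi, a carrier of acyl-CoA, rose (2.24, adjusted p = 4.3e-06), and Slc27a3 of the fatty acid transport protein family fell (-3.45, adjusted p = 0.00024). Of 24 tested brush border genes of enterocytes, 20 rose and 1 fell, with a median log2 fold change of 3.38.

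The genes that work beside Fabp6 moved although Fabp6 did not pass. Of 6 tested genes of ileal bile acid handling, 5 rose in the gate and 0 fell (median log2 fold change 2.81). Slc51b, a subunit of the basolateral bile acid exporter of the ileum, had a mean of 96.3 ± 8.80 CPM (SD, n = 3) in the gate and 1.40 ± 0.501 outside it (log2 fold change 6.06, adjusted p = 8.54e-07). Fgf15, the ileal hormone induced by bile acids, was at 19.2 ± 11.2 against 2.47 ± 3.92 CPM (2.94, adjusted p = 0.046), a call kept in 2 of 6 fits with a library left out. Slc10a2, the apical bile acid importer of the ileum, had too few reads to be tested (4.07 ± 4.53 and 0.218 ± 0.378 CPM).

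Markers of other cells that use these carriers were summed beside the results. The 14 adipocyte markers summed to 220 to 324 CPM in the gate and 68.5 to 102 outside it, with Lep at 0 in the gate. Of 10 tested, 3 were higher and 1 lower in the gate, led by Lpl, which frees fatty acids from lipoproteins (177 ± 66.2 against 32.7 ± 12.8 CPM, SD, n = 3 each; log2 fold change 2.42, adjusted p = 0.000546), and Cidec of lipid droplets (27.9 ± 2.71 against 4.83 ± 2.82 CPM; 2.52, adjusted p = 0.000664). The adipocyte hormone Adipoq was at 6.71 ± 2.47 and 7.43 ± 4.27 CPM and Plin1 at 0.528 ± 0.479 and 0.138 ± 0.120 CPM. The 19 markers of macrophages and dendritic cells summed to 946 to 1326 CPM in the gate and 401 to 546 outside it, with Clec9a at 0 outside it. Of 14 tested, 5 were higher and 1 lower in the gate, led by Fcer1g, a signalling chain of myeloid cells (70.4 ± 10.4 against 19.8 ± 2.19 CPM; 1.81, adjusted p = 4.12e-05), and Mrc1, the macrophage mannose receptor (158 ± 16.01 against 36.5 ± 9.79 CPM; 2.10, adjusted p = 4.7e-05). Ptprc, the gene of the blood-cell marker CD45, was at 22.9 ± 10.5 and 15.5 ± 7.19 CPM (0.54, adjusted p = 0.366). Endothelial markers summed to 130 to 265 and 125 to 147 CPM and glial markers, which bear on Fabp7, to 530 to 590 and 327 to 371 CPM, with no marker of either list at 0. Of 13 tested endothelial markers, 6 were higher and 1 lower in the gate. They were led by Kdr (13.7 ± 9.97 against 0.427 ± 0.226 CPM; 4.92, adjusted p = 0.000895) and Pecam1 (29.8 ± 16.7 against 5.60 ± 1.13 CPM; 2.39, adjusted p = 0.00209). Of 8 tested glial markers, 3 were higher and 2 lower. Erythroid markers summed to 177 to 255 and 19.7 to 34.1 CPM, with 5 of 6 tested higher, and microfold markers to 6442 to 7142 and 2369 to 2481 CPM, with 10 of 11 higher. Tuft markers and proliferation genes went the other way, with 15 of 16 and 19 of 19 lower in the gate. The mitochondrial share of reads was 0.7785% to 0.9996% in the gate and 1.36% to 1.88% outside it, and that of ribosomal protein genes 0.757% to 0.938% and 2.09% to 2.21%. The part of these cells and of RNA quality in the differences of the 4 members and of Fabp7 was not tested.

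In mTEClo, Fabp1 was low in the genotypes without an intact Hnf4g allele. The 4 control libraries had 11.2, 24.6, 44.4 and 32.1 CPM. The 3 Hnf4g-removed libraries had 2.88, 3.36 and 2.64 CPM, the 3 Hnf4a-removed ones 20.2, 14.8 and 20.98, and the 4 double-mutant ones 3.09, 3.78, 2.52 and 2.92. The libraries with both Hnf4g alleles removed lay in a narrow band under every library with an intact Hnf4g allele, from 16 to 26 reads each, and the Hnf4a-removed libraries lay inside the control range.

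Against controls, Fabp1 was 9.46-fold lower in Hnf4g-removed mTEClo (log2 fold change -3.24, SE 0.40, 95% interval -4.08 to -2.40, adjusted p = 0.00499). It was 9.08-fold lower in double-mutant mTEClo (-3.18, SE 0.35, 95% interval -3.92 to -2.44, adjusted p = 0.0007). These calls held in 7 of 7 and 8 of 8 fits with a library left out. With Hnf4a removed alone the log2 fold change was -0.60 (SE 0.34, 95% interval -1.31 to 0.12, adjusted p = 0.862), which did not pass, and the interval allows a fall to 0.403 of the control level. Fabp1 was the member called in each of the first 2 comparisons, where 0.0959% and 0.581% of the 18775 genes tested were called lower. Markers of microfold cells, an epithelial type of gut lymphoid tissue, moved beside Fabp1. Of 11 tested, 2 fell with Hnf4g removed, the chemokines Ccl9 (-1.76, adjusted p = 0.00803) and Ccl6 (-3.10, adjusted p = 0.0162, called in 4 of 7 fits with a library left out), 4 fell in the double mutant and 0 were called with Hnf4a removed. They summed to 4668 to 6102 CPM in control, 3213 to 4665 with Hnf4g removed, 4156 to 4493 in the double mutant and 5123 to 7017 with Hnf4a removed, with no marker at 0. Brush border genes of enterocytes moved beside Fabp1 as well. The 24 genes of that list summed to 1330 to 1712 CPM in control and 1263 to 1657 with Hnf4a removed. The sum was 987 to 1122 CPM with Hnf4g removed and 998 to 1092 in the double mutant. The part of microfold-like and enterocyte-like cells in the level of Fabp1 was not tested. Among all 7 members, 0 were called with Hnf4a removed, where 0.00533% of all genes were called, 0 members had an unadjusted p under 0.05 and DESeq2 called 0 members.

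The mutants were also compared with each other, which reuses the libraries already compared. Where Hnf4a was removed in both groups, the group that also lacked Hnf4g had 6.00-fold lower Fabp1 (double-mutant against Hnf4a-removed mTEClo, log2 fold change -2.59, SE 0.36, adjusted p = 0.00656), a call kept in 7 of 7 fits with a library left out. It was 1 of 7 members called, beside 0.261% of all genes called lower. Where Hnf4g was removed in both groups, Fabp1 with and without removal of Hnf4a differed by a log2 fold change of 0.06 (SE 0.40, 95% interval -0.79 to 0.91, adjusted p = 0.98), an interval from 0.577 to 1.88 times the Hnf4g-removed level. In that comparison 0 of 7 members and 0.0107% of all genes were called, 1 member had an unadjusted p under 0.05, and DESeq2 called 0 members.

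Between the single mutants, Fabp1 was 6.25-fold lower with Hnf4g than with Hnf4a removed (log2 fold change -2.64, SE 0.41, 95% interval -3.50 to -1.78, adjusted p = 0.0208). It was again 1 of 7 members called, where 0.0586% of all genes were called lower. The direction and size held with a library left out, but the call held in 2 of 6 such fits: the adjusted p was 0.0895 without Hnf4g-removed replicate 1, 0.0619 without its replicate 2, 0.0565 without Hnf4a-removed replicate 1 and 0.0838 without its replicate 3. It was 0.0304 without the 3 libraries that stood apart.

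Fabp2 was low and uneven in mTEClo. The control libraries had 17.4, 2.73, 1.18 and 5.45 CPM, and the highest of them, replicate 1, is a library that stood apart. The Hnf4g-removed libraries had 3.41, 0.177 and 0.555 CPM, the Hnf4a-removed ones 2.49, 0.295 and 1.92, and the double-mutant ones 0.134, 1.60, 0.794 and 2.34. The mutant libraries overlapped the lower controls in each case. The log2 fold changes of -2.45 (SE 0.95, adjusted p = 0.285) in the double mutant, -2.27 (adjusted p = 0.605) with Hnf4g removed and -2.08 (adjusted p = 0.838) with Hnf4a removed did not pass. Without the 3 libraries apart the first was -1.36 (adjusted p = 0.519). At 1 to 19 reads per mutant library, a change of Fabp2 of this size was not resolved.

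Fabp6 had 2.12, 10.8, 3.70 and 29.1 CPM in control and 10.2, 4.07, 2.78 and 2.04 in double-mutant mTEClo, with overlap (log2 fold change -1.25, SE 0.76, adjusted p = 0.557). It had 3.23, 23.9 and 8.61 CPM with Hnf4g removed and 10.1, 5.17 and 19.7 with Hnf4a removed. The ranges of the 4 genotypes overlapped.

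Fabp4 and Fabp5 were lowest in the double mutant. Fabp4 had 105, 128, 195 and 170 CPM in control and 106, 65.0, 95.1 and 75.4 in double-mutant mTEClo, where the lowest control and the highest double mutant touched. Fabp5 had 210, 269, 345 and 311 CPM in control and 173, 140, 149 and 155 in double-mutant mTEClo, without overlap. The log2 fold changes were -0.81 (SE 0.21, adjusted p = 0.105) for Fabp4 and -0.88 (SE 0.23, adjusted p = 0.105) for Fabp5, and neither passed over all libraries. Without the 3 libraries apart they were -0.95 (adjusted p = 0.00842) and -0.999 (adjusted p = 0.000258), but those libraries were the lowest of their groups in both genes, so leaving them out widens the difference by construction. Fabp4 also passed by DESeq2 (adjusted p = 0.00901) and without control replicate 1 (adjusted p = 0.0427), and Fabp5 with the 2 groups fitted alone (adjusted p = 0.0079).

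In the single mutants Fabp5 fell into 2 levels. It had 173, 329 and 329 CPM with Hnf4g removed and 172, 376 and 387 with Hnf4a removed, and in both groups the low library was replicate 1, which stood apart. The higher libraries lay within or above the control range and the low ones inside the range of the double mutant. Against the single mutants, double-mutant mTEClo had log2 fold changes of Fabp5 of -0.996 (SE 0.25, adjusted p = 0.115; Hnf4a removed) and -0.84 (SE 0.25, adjusted p = 0.247; Hnf4g removed). Neither passed. Fabp4 had 80.3, 103 and 120 CPM with Hnf4g removed and 110, 199 and 179 with Hnf4a removed, with replicate 1 again lowest in each. Against Hnf4a-removed cells the double mutant had a Fabp4 log2 fold change of -0.91 (adjusted p = 0.115), which did not pass over all libraries.

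Marker lists of other cells were set beside Fabp4 and Fabp5 in double-mutant mTEClo. The mTEC identity list summed to 12210 to 15750 CPM in control and 10770 to 12130 in double-mutant libraries, and 19 proliferation genes to 229 to 443 and 169 to 208 CPM. Macrophage and dendritic markers summed to 405 to 719 and 234 to 558 CPM, with Fcgr1 and Clec9a at 0 in the double mutant, and adipocyte markers to 124 to 157 and 116 to 164 CPM, with no marker at 0. The macrophage and adipocyte sums overlapped between the groups, with median log2 fold changes of -0.50 and -0.43. The adipocyte hormone Adipoq was at 2.81 to 4.73 CPM in control and 0 to 1.02 in the double mutant, without overlap. Of the identity, proliferation, macrophage and adipocyte lists, 0 genes were called. Of 11 tested microfold markers 4 fell (median log2 fold change -1.14), led by Ccl6 (-3.56, adjusted p = 0.00147) and Ccl9 (-1.76, adjusted p = 0.00149). Of 16 tuft markers 2 rose, Ptgs1 (0.63, adjusted p = 0.0148, called in 6 of 8 fits with a library left out) and Avil (0.41, adjusted p = 0.0342, called in 1 of 8), and their sum was 12390 to 16540 CPM in control and 17750 to 19280 in the double mutant. The part of these cells in the levels of Fabp4 and Fabp5 was not tested.

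Fabp3 and Fabp7 were near the lower limit of counting in mTEClo. Fabp3 had 0 to 5.03 CPM over the 14 libraries. The Hnf4a-removed libraries (1.32, 1.18 and 0 CPM) lay below the controls (2.26, 3.79, 1.78 and 3.16 CPM) without overlap, a difference that did not pass (log2 fold change -1.69 against control, SE 0.90, adjusted p = 0.849). Fabp7 had 0.180 to 7.42 CPM, and in control, Hnf4a-removed and Hnf4g-removed mTEClo the lowest library had 1 or 2 reads and the highest 42 to 46. No comparison of genotypes called either gene.

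Few of the lipid genes around the family were called in the mTEClo mutants. In double-mutant mTEClo, 2 of 20 tested genes of the chylomicron list fell, Apoa4 (log2 fold change -3.89, SE 0.70, adjusted p = 0.0174) and Apoc3 (-4.52, SE 0.88, adjusted p = 0.0232). Each kept its call in 2 of 8 fits with a library left out, with adjusted p up to 0.0626 and 0.0861. The median of the list was -0.06, near the -0.001 of all genes. Of 16 PPAR target genes 1 rose, Slc25a20, the mitochondrial carnitine carrier (0.57, adjusted p = 0.0134, called in 6 of 8 fits with a library left out). Of the uptake, bile acid and fatty acid receptor lists (13, 5 and 9 tested genes), 0 were called. With Hnf4g removed alone, 0 genes of these 5 lists were called, as with Hnf4a removed alone. Apoc3 had a mean of 15.5 ± 8.49 CPM (SD) in control, 1.355 ± 2.35 with Hnf4g removed and 9.16 ± 1.005 with Hnf4a removed. Apoa4 was at 28.9 ± 16.4, 7.13 ± 7.16 and 22.2 ± 1.95 CPM in the same groups. The Hnf4g-removed libraries lay below the controls for Apoc3 (up to 4.065 against 6.107 CPM or more) and overlapped them for Apoa4. Of the 23 tested brush border genes, 9 fell in the double mutant and 3 with Hnf4g removed, and 0 were called with Hnf4a removed.

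In mTEChi, Fabp1 was lower in the double mutant, and the other 6 members were not called. Fabp1 had 28.1, 27.95, 22.4 and 20.3 CPM in control and 7.07, 7.06, 7.64 and 3.87 in double-mutant mTEChi. Each double-mutant library was below each control, and double-mutant replicate 4 lay apart below the other 3. The log2 fold change was -1.94, or 3.84-fold lower (SE 0.26, 95% interval -2.50 to -1.38, adjusted p = 0.0031), and the call held in 8 of 8 fits with a library left out. It was 1 of 7 members called lower, beside 0.597% of 18413 genes tested.

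Fabp2 had 5.51, 17.0, 9.74 and 24.8 CPM in control and 4.31, 4.03, 3.26 and 4.50 in double-mutant mTEChi. Its groups did not overlap either, with the controls spread widely and the double mutants close to the lowest control. The log2 fold change of -1.82 (SE 0.42, 95% interval -2.75 to -0.90) did not pass by edgeR (adjusted p = 0.0967). It passed by DESeq2 (adjusted p = 0.00387) and without control replicate 1 (-2.09, adjusted p = 0.0291). Fabp6 had 51.1, 91.5, 70.7 and 50.4 CPM in control and 57.5, 65.7, 21.8 and 46.6 in the double mutant, with overlap (-0.46, SE 0.29, adjusted p = 0.612).

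Fabp4 had 312, 384, 303 and 325 CPM in control and 344, 485, 339 and 314 in double-mutant mTEChi. These groups overlapped, and the log2 fold change was 0.17 (SE 0.14, 95% interval -0.14 to 0.47, adjusted p = 0.715), so a change beyond 1.39-fold upward lies outside the interval. Fabp5 had 452, 658, 556 and 523 CPM in control and 880, 1290, 486 and 631 in the double mutant, which spread from within the control range to above it (0.59, SE 0.24, adjusted p = 0.388). In the same order, the double-mutant libraries had 2.55%, 2.32%, 1.63% and 2.001% of reads in ribosomal protein genes. The control mTEChi libraries had 1.41% to 1.67%. The part of this share in the level of Fabp5, here and in the comparison of subsets below, was not tested. Fabp3 had 9.002, 10.6, 10.5 and 16.4 CPM in control and 13.99, 22.7, 23.6 and 15.98 in the double mutant, with overlap (0.71, SE 0.27, adjusted p = 0.339). Fabp7 had 26.6, 16.6, 12.7 and 8.56 CPM and 10.2, 13.8, 18.8 and 22.1 CPM, with overlapping ranges (0.03, SE 0.35, adjusted p = 0.987).

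Of the lists around the family in mTEChi, 3 of 20 tested chylomicron genes fell in the double mutant. Apoc3 had a mean of 34.3 ± 12.4 CPM (SD, n = 4) in control and 4.59 ± 1.14 in the double mutant (log2 fold change -2.90, adjusted p = 0.000789). The others were Apobec1, which edits the Apob transcript (-0.63, adjusted p = 0.01, called in 7 of 8 fits with a library left out), and Mttp, which loads lipid onto APOB (-1.07, adjusted p = 0.03, called in 3 of 8). Of 8 bile acid genes 1 fell, Fgf15 (22.7 ± 5.93 to 6.95 ± 2.05 CPM, log2 fold change -1.70, adjusted p = 0.0123, called in 7 of 8). Of the uptake, receptor and PPAR target lists, 0 were called, and 7 of 22 tested brush border genes fell.

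Control mTEChi and control mTEClo differed in 5 members. Fabp3, Fabp4, Fabp5, Fabp6 and Fabp7 were higher in mTEChi, 4.26-fold, 2.22-fold, 1.94-fold, 5.79-fold and 5.51-fold, beside 22.4% of 20095 genes tested higher and 42.9% called in either direction. The labels do not say whether libraries of the 2 subsets were made or sequenced together, so subset and preparation cannot be told apart. With the library values given above, the groups did not overlap for any of these 5. The log2 fold changes were 2.09 for Fabp3 (SE 0.42, adjusted p = 0.000633), 1.15 for Fabp4 (SE 0.19, adjusted p = 9.63e-05) and 0.95 for Fabp5 (SE 0.22, adjusted p = 0.00238). They were 2.53 for Fabp6 (SE 0.59, adjusted p = 0.00225) and 2.46 for Fabp7 (SE 0.60, adjusted p = 0.003), and all 5 held in 8 of 8 fits with a library left out.

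Fabp1 and Fabp2 were not called between the control subsets. Fabp1 was at 24.7 ± 3.94 CPM (SD, n = 4) in mTEChi and 28.1 ± 13.9 in mTEClo (log2 fold change -0.18, SE 0.31, 95% interval -0.83 to 0.48, adjusted p = 0.67). Fabp2 was at 14.3 ± 8.47 and 6.69 ± 7.35 CPM (1.096, SE 0.66, adjusted p = 0.192), and without control mTEClo replicate 1 it passed as higher in mTEChi (2.19, adjusted p = 0.0148). Of the bile acid list around Fabp6, 4 of 8 tested genes were higher and 1 lower, among them Slc51a, the other subunit of the ileal exporter (2.37, adjusted p = 0.000907). The uptake list had 1 gene higher and 5 lower of 14 tested.

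Marker lists of other cells also differed between the subsets. Macrophage and dendritic markers summed to 1447 to 1948 CPM in control mTEChi and 405 to 719 in control mTEClo, with 14 of 18 tested genes higher and 1 lower. Adipocyte markers summed to 164 to 239 and 124 to 157 CPM (6 of 13 higher, 1 lower), among them Adipoq at 21.2 ± 5.81 and 3.37 ± 0.915 CPM. Endothelial markers summed to 139 to 200 and 228 to 256 CPM and glial ones to 237 to 257 and 353 to 503 CPM, with the mTEChi libraries below the mTEClo ones in both sums. Muscle markers, which bear on Fabp3, summed to 412 to 504 and 253 to 436 CPM, with 6 of 17 higher and 2 lower. No marker of these lists was at 0 in either group. Tuft markers summed to 608 to 1006 CPM in control mTEChi and 12390 to 16540 in control mTEClo, with 16 of 16 lower. Proliferation genes summed to 906 to 1149 and 229 to 443 CPM (17 of 19 higher, 0 lower). Fibroblast and pericyte markers summed to 756 to 847 and 167 to 296 CPM (8 of 12 higher, 2 lower). The mTEC identity list summed to 35090 to 36580 and 12210 to 15750 CPM (10 of 16 higher, 4 lower). The part of such cells in the subset differences of Fabp3, Fabp4, Fabp5, Fabp6 and Fabp7 was not tested.

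The effect of losing both Hnf4 genes was compared between the subsets by an interaction term, which reuses the same control and double-mutant libraries. The log2 fold change of Fabp1 was 1.24 higher in mTEChi than in mTEClo (SE 0.47, 95% interval 0.25 to 2.23), which did not pass over all genes (adjusted p = 0.306). Fabp5 had the largest difference among the members, 1.47 (SE 0.32, 95% interval 0.80 to 2.13, adjusted p = 0.0883), followed by Fabp4 with 0.97 (SE 0.26, adjusted p = 0.154). Of 7 members 0 were called, beside 0.0597% of 20095 genes. Among the members 3 had an unadjusted p under 0.05, and DESeq2 called 2, Fabp5 (adjusted p = 0.00151) and Fabp4 (adjusted p = 0.0273). Fabp5 also passed by edgeR without control mTEClo replicate 1 (1.59, adjusted p = 0.0329) and without double-mutant mTEChi replicate 3 (1.65, adjusted p = 0.0128).

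Fabp5 and Fabp4 belong to a run of related genes on chromosome 3, in the order Fabp5, Pmp2, Fabp9, Fabp4 and Fabp12, over 288.6 kilobases. Pmp2 encodes the myelin member of the family and Fabp9 the testis member. In the entero-hepato gate Fabp9 had 285, 299 and 252 CPM against 7.21, 24.9 and 16.02 outside it (log2 fold change 4.10, SE 0.33, adjusted p = 2.15e-05). Fabp12 had 41.0, 59.6 and 37.0 CPM against 4.03, 4.81 and 2.03 (3.65, SE 0.33, adjusted p = 4.55e-05), and Pmp2 10.2, 33.3 and 21.8 against 1.06, 6.33 and 2.84 (2.66, SE 0.62, adjusted p = 0.00783). For none of the 3 did the groups overlap, and each of the 5 genes of the run was called higher in the gate. Exons of Pmp2 and Fabp9 overlap the model Gm37389 on the same strand, so reads could be split between them.

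**Figure D4:**
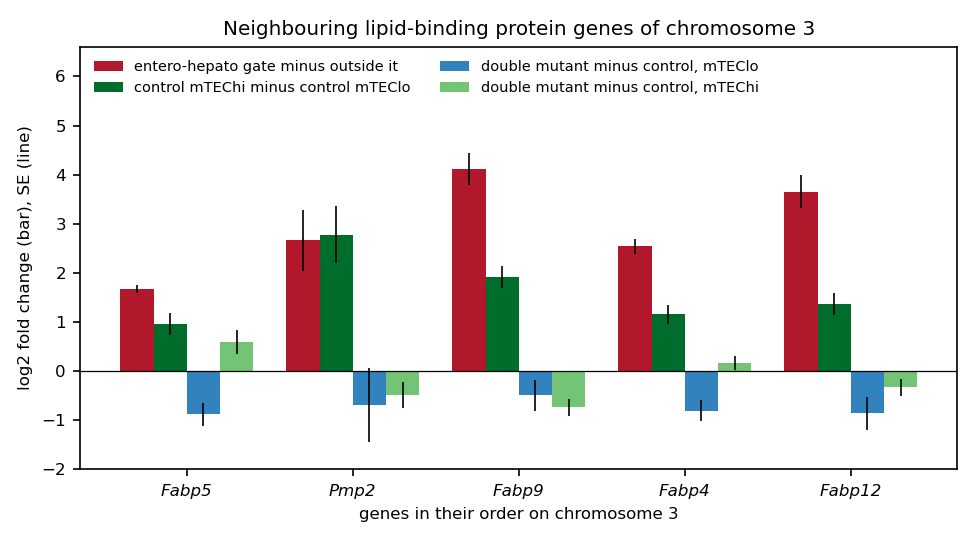
Log2 fold change (bars) with SE (lines) of the 5 related genes of chromosome 3, in chromosome order, in 4 comparisons from edgeR. The entero-hepato and mTEChi bars are above 0 for each gene, from 0.95 to 4.10, and the double-mutant bars did not pass the test.

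The same 5 genes were higher in control mTEChi than in control mTEClo. The log2 fold changes of Fabp9, Fabp12 and Pmp2 were 1.92 (SE 0.23, adjusted p = 3.51e-06), 1.36 (SE 0.23, adjusted p = 0.000122) and 2.77 (SE 0.58, adjusted p = 0.000969). Rbp2, the retinol carrier of enterocytes, did not share this, being higher in the gate (2.10, adjusted p = 0.00277) and lower in mTEChi (-2.82, adjusted p = 0.0118). Of 8 tested relatives of the family, 4 were higher and 1 lower in mTEChi. In the mTEClo and mTEChi mutants 0 relatives were called.

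Within groups, Fabp4 and Fabp5 deviated together. The deviation of each library from its group mean of log2(CPM + 1) was compared for the 21 pairs of members over 28 libraries, with 100000 permutations within groups, adjusted over the 21 pairs. Fabp4 and Fabp5 had Pearson's r = 0.774 (permutation p = 4e-05, adjusted p = 0.00084) and Spearman's rho = 0.761 (permutation p = 0.0001, adjusted p = 0.0021). The r was 0.701 without the 2 libraries farthest from the median of Fabp4 and 0.662 without the 3 libraries apart. Fabp2 and Fabp4 deviated in opposite directions (r = -0.62, permutation p = 0.00455, adjusted p = 0.0478; rho = -0.621, permutation p = 0.00373, adjusted p = 0.0392), with r = -0.482 without the 2 farthest libraries of Fabp2 and -0.46 without the 3 libraries apart. The other 19 pairs did not pass. The values of a library share its scaling factor and its sorted cells, and deviations within groups of 3 or 4 are not independent.

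**Figure D5:**
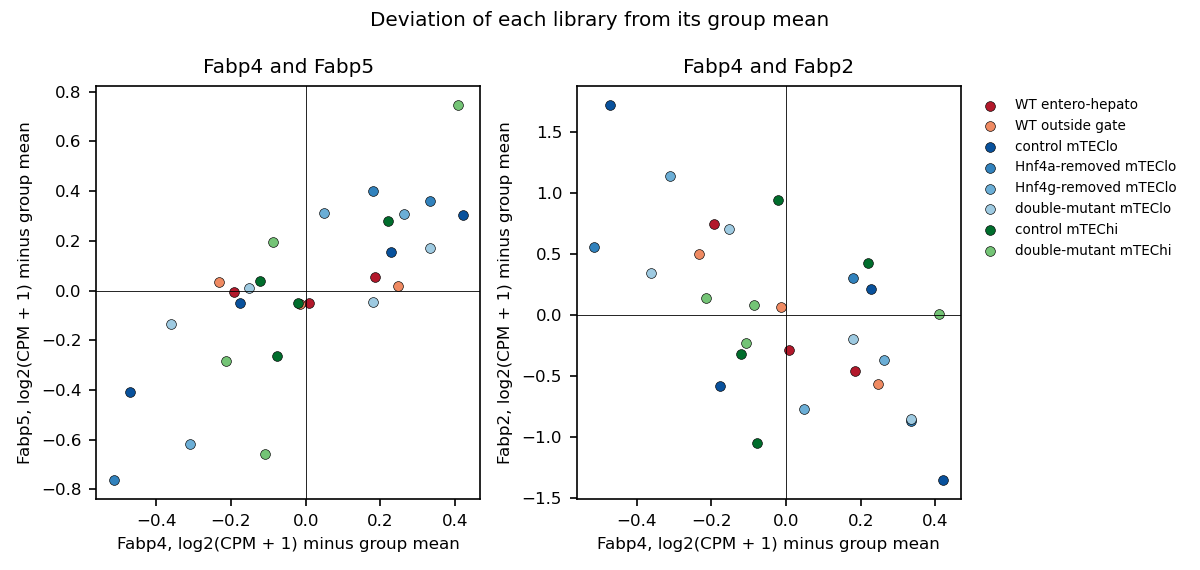
Deviation of each of 28 libraries from its group mean in log2(CPM + 1), for Fabp5 (left) and Fabp2 (right) against Fabp4. Points rise together on the left (r = 0.774) and run opposite ways on the right (r = -0.62).

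Among 12930 candidate genes, the genes whose level over the 28 libraries was most like that of each member were found by Pearson's r of log2(CPM + 1), as a description in which the libraries share their 8 groups. Fabp1 was most like Cldn2 (0.951), a pore-forming claudin, the epithelial mucin Muc13 (0.929) and Apoc3 (0.927). Over the 22 Foxn1-Cre libraries its nearest genes were the chemokine Ccl6 (0.945), Apoc3 (0.911) and Serpinb1a (0.892). Fabp2 was most like Mlxipl (0.873), a transcription factor of sugar and lipid metabolism, in both sets of libraries (0.794 in the 22). Fabp5 was most like Txn1 (0.981), which encodes thioredoxin, and over the 22 libraries Txn1 (0.967), Relb (0.962) and Relt (0.958). Fabp4 was most like Ctsh (0.955), a lysosomal protease, B2m (0.948) of the MHC class I complex and Ctsz (0.946), and over the 22 libraries Vcam1, Csn2 and Mrpl38 (0.954 each).

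The other members had partners of another kind. Fabp3 was most like Fas (0.911), the death receptor, and over the 22 libraries Fas (0.919), Zfand6 (0.913) and Mdm2 (0.913). Fabp6 was most like Smyd5 (0.902, and 0.953 in the 22 libraries) and Fam129c (0.892 and 0.921). Over the 28 libraries Fabp7 had the weakest likeness of the 7, led by Tbc1d23 and then Scpep1 (0.822), and over the 22 libraries Fabp2 had, with Mlxipl. Zfand6 was among the nearest 3 genes of both Fabp3 and Fabp7 (0.901) over the 22 libraries.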

How the data were processed

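The authors deposited 1 table of read counts per gene symbol for the 28 libraries, each from 1000 sorted cells after depletion of CD45+ cells, per the labels' protocols. Reads were aligned to mm10 with STAR 2.7.3a and counted with featureCounts, per the submitters' processing notes. No source used here gives the annotation or the options of the counting. The kit marks neither strand nor single molecules, so several reads can stem from a single molecule by PCR.

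Counts were tested as deposited with edgeR 4.0.16 (R 4.3.3, quasi-likelihood test, TMM scaling, genes filtered by expression at a minimum count of 10 and a minimum total of 15) and Benjamini-Hochberg adjustment over all genes tested, at 0.05. The wild-type gates, the 4 mTEClo genotypes, the 2 mTEChi genotypes and the 4 control and double-mutant groups across subsets were each fitted together. Standard errors come from the quasi-likelihood statistic. Levels are CPM on TMM-scaled libraries over all 28. Script statistics were tested on simulated data. Alternatives were DESeq2 1.42.0, other scaling, no filter, a replicate block, other sets of libraries and leaving out each library. Leaving out the 3 libraries apart was chosen after seeing the data. The members and gene lists were chosen with earlier results of these data known. All members were named, and from each list in each comparison the called genes of smallest p (up to 4, or 2 for markers). Fgf15 and Pmp2 in the gate, Rbp2 in mTEChi, Slc10a2 and Ptprc lie outside that rule and were chosen after their values were seen. The same holds for Apoa4 and Apoc3 in the single mutants and Adipoq in double-mutant mTEClo. A result on 1 further gene is not reported here.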

Additional observations from a re-analysis of the deposited data

Results flagged for a closer look

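Each member was looked at for a library far from the others in the 4 groups of 4 libraries, 28 sets of values in all, of which 1 was far enough to be listed here. Chance alone lists about 1 in 20. Fabp1 in double-mutant mTEChi replicate 4 was at 3.87 CPM, and its distance to the nearest of the other 3 libraries (7.06 to 7.64 CPM) was 0.845 of the range of the group. Fabp1 was called lower in double-mutant mTEChi with this library left out as well as with it.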

How the results depend on the processing

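The number of members called changed with the setting in 9 of 10 comparisons, by more than 1.5 times in 7. It was 4 to 5 in the entero-hepato gate, 0 with Hnf4a removed and 5 to 6 between the control subsets under the settings tried. For double-mutant against control mTEClo it was 1, but 2 by DESeq2, 5 with no filter, 2 with the groups fitted alone, 3 without the 3 libraries apart and 1 to 2 with a library left out. Against Hnf4a-removed mTEClo it was 1, but 2 by DESeq2, 4 with no filter, 3 without the 3 libraries and 1 to 2 with a library left out. Against Hnf4g-removed mTEClo it was 0, but 2 with no filter and 1 without the 3 libraries. For Hnf4g-removed mTEClo against control it was 1, but 2 with no filter. Between the single mutants it was 1, but 2 with no filter, 0 with the groups alone and 0 to 1 with a library left out. In mTEChi it was 1, but 2 by DESeq2, 3 with no filter and 1 to 2 with a library left out. For the interaction it was 0, but 2 by DESeq2, 2 with no filter, 1 without the 3 libraries and 0 to 1 with a library left out.

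Each member changed sign with a library left out in some comparison where it had not been called. Fabp2 ran from -0.711 to 1.634 between double-mutant and Hnf4g-removed mTEClo. Fabp6 ran from -0.927 to 1.097 between Hnf4g-removed and control mTEClo, and Fabp7 from -0.145 to 1.027 between double-mutant and control mTEClo. Between double-mutant and Hnf4g-removed mTEClo the log2 fold change of Fabp1 ran from -0.055 to 0.15 with a library left out, at -0.022 without Hnf4g-removed replicate 3 and -0.055 without double-mutant replicate 2. Between the control subsets it ran from -0.451 to 0.127, the latter without control mTEClo replicate 3. Scaled by plain totals, Fabp4 in the gate was 542.5 CPM, Fabp5 in the gate 1336 and Fabp5 outside it 537.6. The cause of these shifts was not tested. Counts without the 3 libraries are no sign of stability, since these are the compared libraries most like the double mutant and the lowest of their groups in Fabp4 and Fabp5.

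Counts over all genes moved by more than 1.5 times outside the gate and control subset comparisons. For double-mutant against control mTEClo they were 139, but 456 by DESeq2, 967 with no filter, 295 with the groups alone, 543 without the 3 libraries and 47 to 207 with a library left out. For Hnf4g removed they were 18, but 143 by DESeq2, 482 with no filter, 11 without the 3 libraries and 9 to 23 with a library left out. For Hnf4a removed it was 1, but 8, 212, 0 and 0 to 1 in the same settings, with 0 for the groups alone. For the double mutant against Hnf4a removed they were 55, but 278, 733, 216 and 7 to 53, with 104 under the block. Against Hnf4g removed they were 2, but 197, 516, 255 and 1 to 119, with 13 by DESeq2-type scaling, 7 under the block and 1 for the groups alone. Between the single mutants they were 12, but 98, 404, 7 and 2 to 39, with 1 for the groups alone. In mTEChi they were 117, but 439 by DESeq2, 619 with no filter, 282 fitted with all 28 libraries and 71 to 188 with a library left out. For the interaction they were 12, but 360, 321, 3 and 1 to 157 in these settings, with 85 without the 3 libraries and 5 under the block. With the replicate number as a block, the members called were 4, 1, 0, 1, 1, 0, 1, 1, 5 and 0 over the 10 comparisons, and the block changed no call of a member. Same-numbered libraries deviated together weakly or not at all (r of -0.022 to 0.183), so the numbers were not taken as pairing. At 1 to 19 reads of Fabp2 per mutant mTEClo library, depth limits what can be seen of it.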
